A study of Mus musculus with 38 samples.

Results

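The genes described here are the mouse genes for the eukaryotic translation initiation factors eIF1 to eIF6. Members were taken as protein coding genes whose symbol starts with Eif and a digit from 1 to 6, leaving out the eIF4E-binding proteins (Eif4ebp) and the eIF2 kinases (Eif2ak). The rule used no measured value and found 48 genes among the 53801 rows of the count table. Of these, 47 passed the filter on low counts, and the remaining member, Eif4e1b, an eIF4E relative known from oocytes, had 0 counts in all 38 libraries. Over the 108 M counts of those libraries (M for mega), a count of 0 (floor of 3 counts) allows Eif4e1b up to 0.0277 counts per M counts.

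Microglia, the resident macrophages of the brain, were sorted as viable CD11b+ cells from dissociated mouse brain, and their polyadenylated RNA was sequenced from its 3′ end. All mice were C57BL/6J, 3 months old, hemizygous for a bacterial artificial chromosome with human TREM2 and its regulatory elements (TB36), and carried a transferrin receptor with a human part knocked in (hTfR KI), so the controls shared both alleles with the treated mice. DNL919 is an antibody to human TREM2, a lipid-sensing receptor of microglia. It carries an antibody transport vehicle (ATV), a binding site for the human part of the transferrin receptor that moves antibody from blood into brain. ATV:DNP02 is the control antibody on the same vehicle. Each mouse received 1 dose: DNL919 at 10 mg/kg with collection on day 1, day 4 or day 7 (8 libraries each), ATV:DNP02 at 10 mg/kg with collection on day 1 (8 libraries), or vehicle solution with collection on day 1 (Vehicle, 6 libraries). The comparisons ask how the members responded to DNL919 and how long the response lasted. No control of day 4 or day 7 is among the 38 libraries, so those days were set against controls of day 1, and time after handling cannot be told apart from time after antibody. Takedown batches 1 and 2 were female and batches 3 and 4 male, so sex and those batch pairs cannot be told apart. The mice keep their own Trem2 gene beside the human transgene.

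Initiation is the step at which a ribosome is loaded onto a messenger RNA and finds the start codon. eIF2 carries the initiator tRNA to the small ribosomal subunit, eIF2B recharges eIF2 with GTP, and eIF1, eIF1A, eIF3 and eIF5 assemble with them into a preinitiation complex. The eIF4F complex, made of the cap-binding protein eIF4E, the scaffold eIF4G and the helicase eIF4A, recruits that complex to the capped end of the messenger. eIF5B and eIF6 act on the large ribosomal subunit, and eIF5A mainly helps elongation and termination despite its name. Cells that grow or divide are known to raise many of these factors.

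Promoter windows from RefSeq (GRCm38.p6, 250 bases before to 50 bases after a transcript start) were found for 38 of the 48 members, in 50 windows. The motif CACGTG, the palindromic E-box that Myc and related factors are known to bind, was searched on both strands and stood in the windows of 10 of the 38 members (26.3%), against 8.09% of the 27025 genes in the table. By windows, these shares were 24.0% and 7.15%. The motif is rich in G and C, base composition was not matched between these sets, and no test was run. Among members that rose on day 1 (described below) 5 of 20 with a window held the motif, and among those that were not called 5 of 17 held it. The 4 stretches below are shown because they hold this motif (in capitals), overlap no annotated exon in GENCODE vM21 and belong to 3 members that rose on day 1 and to Eif3f, the only member called on day 4 and day 7. Each is given 5′ to 3′ on the gene's own strand and reaches 30 bases to either side of the motif. The Eif5a stretch is chr11:69921425-69921490 on the minus strand, inside an intron of 1 longer Eif5a transcript, with the motif beginning 74 bases before the nearest downstream RefSeq start. The Eif4a1 stretch is chr11:69672577-69672642 on the minus strand, with the motif 189 bases before the start. The Eif3k stretch is chr7:28981897-28981962 on the minus strand, with the motif 44 bases before the start. The Eif3f stretch is chr7:108934317-108934382 on the plus strand, with the motif 68 bases before the start.
Eif5a: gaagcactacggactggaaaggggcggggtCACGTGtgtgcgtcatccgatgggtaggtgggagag
Eif4a1: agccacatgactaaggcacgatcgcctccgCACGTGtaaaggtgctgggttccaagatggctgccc
Eif3k: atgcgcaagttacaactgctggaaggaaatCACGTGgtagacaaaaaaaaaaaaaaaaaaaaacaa
Eif3f: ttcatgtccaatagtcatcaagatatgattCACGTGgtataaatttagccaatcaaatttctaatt
The core of the interferon-stimulated response element, searched likewise, stood in the windows of 3 of 38 members (7.89%) and 3.99% of all genes. The C/EBP-ATF element TGATGCAA stood in none of the 38 members and in 1.03% of all genes.

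Libraries held 1.65 to 6.42 M counts. Those of DNL919 day 1 were deeper (2.91 to 6.42 M) than those of ATV:DNP02 (1.65 to 3.48 M), and their share of counts in rows that are not protein coding was lower, with a median of 5.05% against 9.83%. The 7 microglial markers measured summed to 10910 to 18438 CPM (counts per M counts, scaled between libraries by the trimmed mean of M values) in ATV:DNP02, with a median of 14940, and to 10790 to 16326 CPM on DNL919 day 1, with a median of 11942. Of these P2ry12 (log2 fold change -1.50, adjusted p = 1.7e-09) and Cx3cr1 (-0.48, adjusted p = 0.0072) were lower on day 1 and Aif1 (0.48, adjusted p = 0.0057) was higher. Of 8 monocyte markers 7 passed the filter on low counts, none was called, and the list summed to 3.53 to 242 CPM in ATV:DNP02 and 15.3 to 227 CPM on day 1. Of 8 astrocyte markers 3 passed that filter, and their list summed to 195 to 314 CPM in ATV:DNP02 and 116 to 254 CPM on DNL919 day 1. The 8 border-associated macrophage markers all passed and summed to 278 to 1195 CPM and 116 to 577 CPM in the same order, and the 8 neutrophil markers, of which 5 passed, to 135 to 827 CPM and 64.8 to 325 CPM. On day 1 against ATV:DNP02, 3 of 8 border-associated macrophage markers were called lower. So was 1 each of 3 astrocyte, 5 neutrophil, 6 oligodendrocyte, 7 neuron and 3 endothelium markers tested. On these lists 0 were called higher, and 15% of all genes tested were lower. DNL919 day 7 replicate 7 and DNL919 day 4 replicate 6 stood apart with 28025 and 5921 CPM of neutrophil markers. In bulk RNA, fewer cells of a type and less RNA per cell cannot be told apart. The part of depth, noncoding share and other cells in the results was not tested, other than by the fits named beside them.

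On day 1 after DNL919 most initiation factor genes were higher than in mice given ATV:DNP02. Of the 47 members tested, 25 rose and 2 fell (limma-voom, Benjamini-Hochberg adjusted p under 0.05). Of all 11189 genes tested 35.8% were called, 20.8% higher and 15% lower. The members' median log2 fold change was 0.73, against 0.01 over all genes tested, and 40 of 47 members had a value above 0. In 7 members every DNL919 day 1 library lay above every ATV:DNP02 library, which 5.54% of all genes did. The members' summed level ranged from 4954 to 7346 CPM (median 6821) on DNL919 day 1, from 3485 to 4012 CPM (median 3804) in ATV:DNP02 and from 3213 to 3863 CPM (median 3684) in Vehicle, with no overlap between day 1 and either control. DNL919 day 1 replicates 5 and 8, both male, were the lowest of their group with 4954 and 4992 CPM. With the noncoding share of each library as a covariate 17 members were called in place of 27, 16 higher and 1 lower, where 23.7% of all genes were called. The 11 that lost their call in that fit were Eif1, Eif1a, Eif2b1, Eif2b4, Eif3b, Eif3d, Eif3h, Eif3l, Eif4e2, Eif4g3 and Eif4h. In the males alone 9 members were called, where 8.44% of all genes were, and these 11 lost their call there too except Eif3b, as did 9 other members of the 27. All 27 called members had the same sign of difference in each of the 4 batches.

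**Figure D1:**
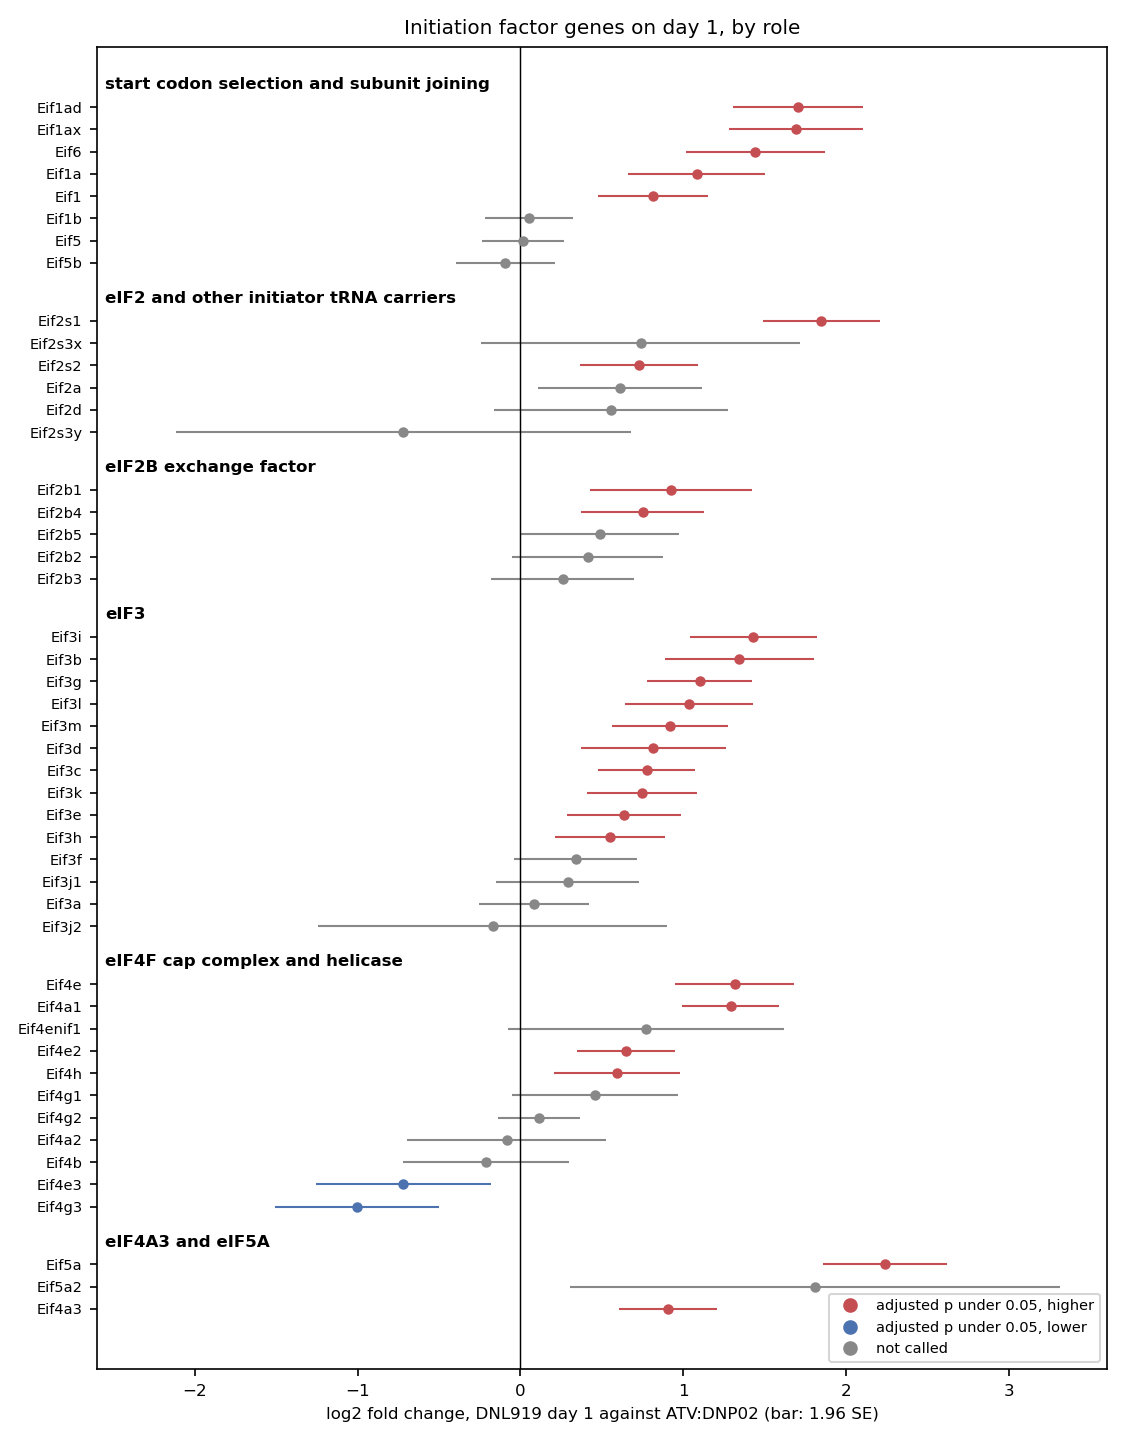
Log2 fold change of the 47 tested members between DNL919 day 1 (n = 8) and ATV:DNP02 (n = 8), grouped by role, with bars of 1.96 SE. Red points were called higher (25 members), blue points lower (2 members) and grey points were not called (20 members).

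Start codon selection and subunit joining. Of the 8 members grouped here, which include Eif1ad for its domain alone, 5 rose and none fell. Eif1ad, which encodes a protein with an eIF1A-like domain, measured 58.0, 108 and 127 CPM (lowest, median and highest library) on DNL919 day 1 and 20.2, 34.8 and 42.3 CPM in ATV:DNP02. The groups did not overlap, and the log2 fold change was 1.70 (SE 0.20, adjusted p = 5.4e-09). Eif1ax and Eif1a encode forms of eIF1A, which holds the scanning subunit open. Eif1ax measured 72.5, 112 and 163 CPM on day 1 and 20.0, 35.0 and 58.4 CPM in ATV:DNP02, again without overlap (log2 fold change 1.69, SE 0.21, adjusted p = 1.3e-08). Eif1a measured 102, 145 and 187 CPM against 46.8, 67.3 and 96.7 CPM (log2 fold change 1.08, SE 0.21, adjusted p = 7.9e-05). Both forms of eIF1A thus lay above the control in every day 1 library. With the noncoding covariate Eif1a was at 0.66 and was not called (adjusted p = 0.062). Their sequences are close, and how the authors' counting treated reads that match both is not given, so their separate levels are uncertain.

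Eif6, whose protein keeps the large subunit apart from the small one, measured 102, 153 and 172 CPM on day 1 and 25.2, 53.2 and 82.8 CPM in ATV:DNP02. The groups did not overlap (log2 fold change 1.44, SE 0.22, adjusted p = 8.3e-07). With the noncoding covariate Eif6 was at 0.55 and was still called (adjusted p = 0.045). Eif1, whose protein guards start codon choice, measured 239, 458 and 567.6 CPM against 184, 235 and 367 CPM. It was above the control mean in 7 of 8 day 1 libraries (log2 fold change 0.81, SE 0.17, adjusted p = 1.8e-04), but with the noncoding covariate the value was 0.16 (adjusted p = 0.53). Its relative Eif1b measured 109, 148 and 178 CPM against 115, 144 and 160 CPM, with a log2 fold change of 0.05 (interval from -0.22 to 0.32). The factors that end the search were not called either. Eif5, the activator of GTP hydrolysis by eIF2, had a log2 fold change of 0.02 (interval from -0.24 to 0.27), and Eif5b, the GTPase of subunit joining, one of -0.09 (interval from -0.40 to 0.21).

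eIF2 and other carriers of initiator tRNA. Eif2s1 and Eif2s2 encode the alpha and beta subunits of eIF2, and both rose, while the other 4 genes of this role were not called. Eif2s1 (ENSMUSG00000021116, chr12:78861819-78887010, plus strand), whose protein is the target of the stress kinases, measured 131, 282 and 343 CPM on day 1 and 55.5, 67.6 and 88.7 CPM in ATV:DNP02. Every day 1 library was above every control library (log2 fold change 1.85, SE 0.18, adjusted p = 6.8e-11). Eif2s2 measured 215, 501 and 733 CPM against 212, 301 and 371 CPM, overlapping at the low end (log2 fold change 0.73, SE 0.18, adjusted p = 0.0015). Its call was lost without batch 1 and in males alone.

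The gamma subunit of eIF2 is encoded on both sex chromosomes, by Eif2s3x and Eif2s3y. Eif2s3y had 0 counts in all 19 female libraries and 59.9 to 164 CPM in the 19 male libraries, in accord with every sex label. Eif2s3x was near the detection limit in these 3′ data, with 351 counts in all libraries together and medians of 3.49 CPM in females and 2.03 CPM in males. Its reads and those of the Y copy may be split by the counting, so the pair is uncertain. In males Eif2s3y measured 68.7, 80.5 and 123 CPM (lowest, median and highest) in the 4 DNL919 day 1 libraries and 132, 136 and 159 CPM in the 4 ATV:DNP02 libraries. These male groups did not overlap, but 3 male Vehicle libraries ranged from 67.2 to 105 CPM, as low as the day 1 libraries. In the fit over both sexes neither gene was called (log2 fold change 0.74, SE 0.50, adjusted p = 0.26 for Eif2s3x and -0.72, SE 0.71, adjusted p = 0.46 for Eif2s3y). For Eif2s3y that fit includes the 19 female libraries at 0 counts. Their fitted values follow library depth alone, so -0.72 does not measure a change of this gene. Eif2a and Eif2d, which encode other factors able to deliver initiator tRNA, had log2 fold changes of 0.61 (adjusted p = 0.060) and 0.56 (adjusted p = 0.25).

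eIF2B. The 5 subunits of the exchange factor that recharges eIF2 all had positive values, from 0.26 for Eif2b3 to 0.92 for Eif2b1, and 2 were called. Eif2b1, the alpha subunit, measured 24.3, 52.9 and 59.2 CPM on day 1 and 11.7, 25.2 and 36.7 CPM in ATV:DNP02 (log2 fold change 0.92, SE 0.25, adjusted p = 0.0033). Eif2b4, the delta subunit, measured 43.5, 78.8 and 94.1 CPM against 16.2, 41.1 and 77.8 CPM (log2 fold change 0.75, SE 0.19, adjusted p = 0.0018). Both ranges overlapped, and neither gene was called with the noncoding covariate. Eif2b2 (0.41), Eif2b3 (0.26) and Eif2b5 (0.49) did not pass, with adjusted p from 0.12 to 0.39. Eif2b4 overlaps Snx17 on the other strand, and whether the counts used strand is not given.

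eIF3. The largest initiation factor is a scaffold on the small subunit, with 14 member genes here, of which 10 rose and none fell. Eif3i, a beta-propeller subunit, measured 74.5, 136 and 163 CPM on day 1 and 23.5, 48.5 and 88.3 CPM in ATV:DNP02 (log2 fold change 1.43, SE 0.20, adjusted p = 1.3e-07). A single control library, replicate 7, reached into the day 1 range. Eif3b and Eif3g, which with Eif3i make up a module that travels with the scanning complex, rose too. Eif3b measured 49.5, 71.6 and 136 CPM against 10.0, 27.8 and 68.1 CPM (log2 fold change 1.34, SE 0.23, adjusted p = 1.0e-05). With the noncoding covariate its log2 fold change was 0.32 and it was not called. Eif3g measured 200.5, 370 and 436 CPM against 100.04, 159 and 224 CPM (log2 fold change 1.10, SE 0.16, adjusted p = 6.3e-07).

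Among the subunits of the structural core, Eif3l measured 73.3, 93.1 and 115 CPM on day 1 and 27.7, 46.1 and 77.8 CPM in ATV:DNP02 (log2 fold change 1.04, SE 0.20, adjusted p = 5.5e-05), and 0.45 with the noncoding covariate (adjusted p = 0.16). The other core and peripheral subunits that rose had smaller values, from 0.55 for Eif3h to 0.92 for Eif3m, with Eif3d (0.82), Eif3c (0.78), Eif3k (0.75) and Eif3e (0.64) between them. Eif3a, the largest core subunit, had a log2 fold change of 0.08 (interval from -0.25 to 0.42), so subunits of the same complex differed in their values. Eif3f measured 43.9, 63.3 and 85.1 CPM on day 1 and 35.5, 52.8 and 63.9 CPM in ATV:DNP02 (log2 fold change 0.34, SE 0.19, adjusted p = 0.17). Eif3j1 and its copy Eif3j2 encode a loosely bound subunit, and neither was called. Eif3j1 measured 47.3, 93.0 and 122 CPM against 39.6, 74.6 and 118 CPM (log2 fold change 0.29, SE 0.22, adjusted p = 0.34), and Eif3j2 0.859, 3.22 and 6.66 CPM against 1.08, 3.10 and 6.31 CPM (-0.17, SE 0.55, adjusted p = 0.84). Eif3j2 held 330 counts in all and may share reads with Eif3j1.

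The cap complex. Of 11 tested members around eIF4F, 4 rose, 2 fell and 5 were not called. Eif4e, the cap-binding protein, measured 79.8, 146 and 165 CPM on day 1 and 29.97, 56.4 and 89.7 CPM in ATV:DNP02. All 8 day 1 libraries were above the control mean (log2 fold change 1.31, SE 0.19, adjusted p = 2.2e-07). Eif4a1, the main helicase of the complex, measured 200.5, 372 and 467 CPM against 120, 141 and 170 CPM, without overlap (log2 fold change 1.29, SE 0.15, adjusted p = 3.1e-09). Eif4h, a helicase cofactor, was higher by 0.59 on the log2 scale (SE 0.20, adjusted p = 0.016) and lost its call in 8 of 18 alternatives. Eif4e2, which encodes a cap-binding relative that does not bind eIF4G in the usual way, measured 103, 138 and 174 CPM against 59.9, 88.4 and 118 CPM (log2 fold change 0.65, SE 0.15, adjusted p = 6.9e-04). It was at 0.48 with the noncoding covariate (adjusted p = 0.057) and at 0.27 in males alone (adjusted p = 0.58).

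Both members that fell are grouped in this role, where 2 of 11 tested (18.2%) were lower, against 15% of all genes tested. Eif4g3 (ENSMUSG00000028760, chr4:137993022-138208508, plus strand), a scaffold of the eIF4G family, measured 14.8, 25.1 and 58.0 CPM on day 1 and 35.3, 49.8 and 68.3 CPM in ATV:DNP02. A single day 1 library, replicate 8, was above the control mean, and it was also 1 of the 2 day 1 libraries with the lowest summed level of all members (log2 fold change -1.0025, SE 0.26, adjusted p = 0.0018). Within batches the difference of mean log2(CPM + 1) was -1.28, -1.43, -0.94 and -0.09 in batches 1 to 4. With the noncoding covariate the log2 fold change of Eif4g3 was -0.09 (adjusted p = 0.86). Eif4e3, a cap-binding relative, measured 12.3, 17.3 and 28.6 CPM against 20.4, 28.5 and 59.8 CPM (log2 fold change -0.72, SE 0.27, adjusted p = 0.035). No day 1 library reached the control mean, but edgeR's quasi-likelihood test gave an adjusted p of 0.11 and DESeq2 one of 0.068. Without ATV:DNP02 replicate 5, DNL919 day 1 replicate 1 or DNL919 day 1 replicate 6 the adjusted p for Eif4e3 was 0.099, 0.074 and 0.073.

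The other scaffolds and helicases of this complex were not called. Eif4g1, the main scaffold, measured 23.6, 36.5 and 47.3 CPM on day 1 and 12.6, 25.5 and 48.0 CPM in ATV:DNP02 (log2 fold change 0.46, SE 0.26, adjusted p = 0.17). Eif4g2, whose protein lacks the eIF4E-binding part, measured 131, 155 and 209 CPM against 122, 156 and 173 CPM (log2 fold change 0.11, interval from -0.14 to 0.36). Eif4a2 measured 4.67, 13.4 and 15.2 CPM against 7.07, 11.2 and 21.9 CPM (log2 fold change -0.09, SE 0.31, adjusted p = 0.86). It overlaps Rfc4 on the other strand and several small RNAs, so its count is uncertain. Eif4b had a log2 fold change of -0.21 (adjusted p = 0.57). Eif4enif1, the eIF4E transporter, had one of 0.77 (SE 0.43, adjusted p = 0.17) at a median of 7.26 CPM on day 1, and overlaps Drg1.

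eIF5A and eIF4A3. Eif5a (ENSMUSG00000078812, chr11:69916714-69921958, minus strand) had the largest change of the 47 members. It measured 323, 654 and 717 CPM on day 1 after DNL919, 67.9, 130 and 162 CPM in ATV:DNP02 and 67.2, 111 and 137 CPM in Vehicle. Every day 1 library was above every library of both controls, and the mean rose from 126 ± 30.6 to 595 ± 156 CPM (SD, n = 8 each). The log2 fold change was 2.24 (SE 0.19, 4.71-fold, adjusted p = 2.5e-12), and it ranged from 2.08 to 2.30 when each of the 16 libraries was left out in turn. With the noncoding covariate the value for Eif5a was 1.61, and in males alone 1.97, called in both fits. Its relative Eif5a2 held 279 counts in all and 0 counts in 10 libraries. It measured 0.33, 2.53 and 7.98 CPM on day 1, 0, 0.21 and 2.52 CPM in ATV:DNP02 and 0, 3.83 and 11.5 CPM in Vehicle, and was not called (adjusted p = 0.061). Eif4a3, a helicase of the exon junction complex rather than of initiation, measured 138, 204 and 254 CPM against 63.9, 108 and 144 CPM (log2 fold change 0.91, SE 0.15, adjusted p = 6.9e-06).

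**Figure D2:**
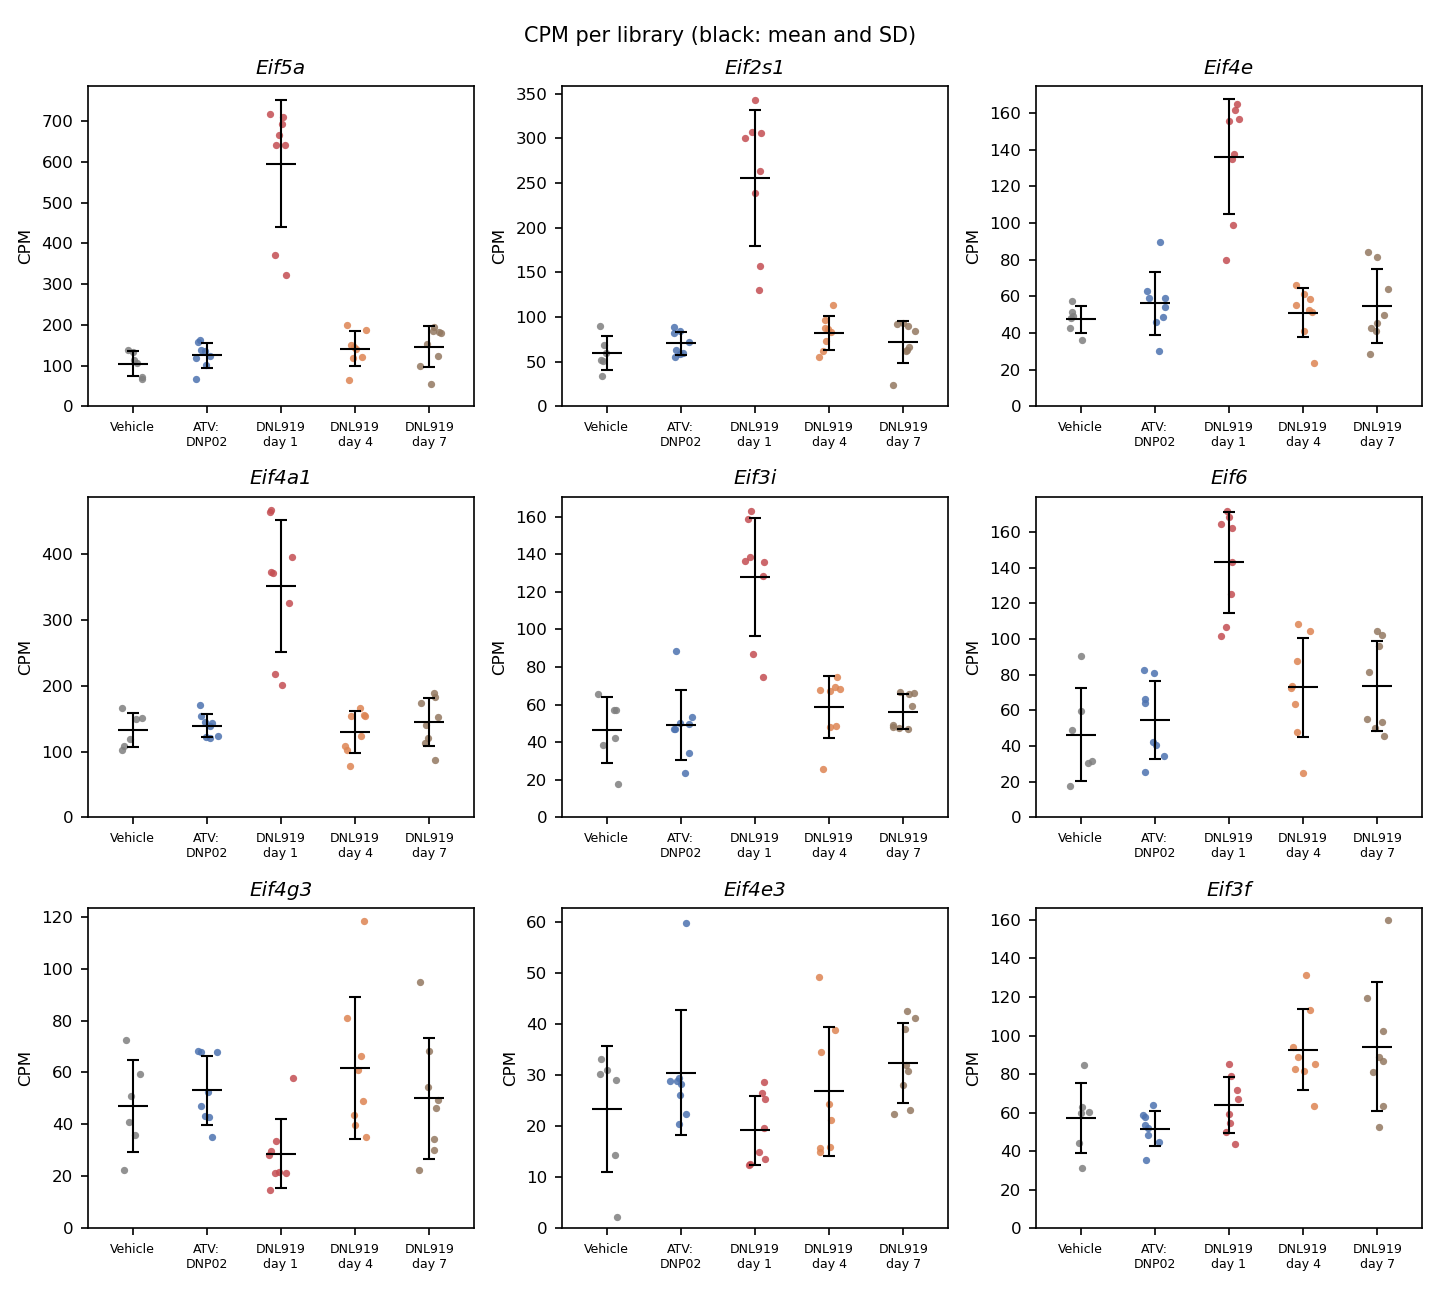
CPM of 9 members in each of the 38 libraries by group, with the mean and SD in black. Eif5a, Eif2s1, Eif4a1 and Eif6 on DNL919 day 1 lie above every ATV:DNP02 library, Eif4g3 and Eif4e3 are lower on day 1, and Eif3f is highest on days 4 and 7 (means of 92.7 and 94.3 CPM).

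Because related members can differ in response, 8 pairs were compared within each library as a log2 ratio of CPM + 1, which the scaling between libraries hardly moves. The test was a two-sided exact permutation test of DNL919 day 1 against ATV:DNP02 (n = 8 each, 12870 permutations), adjusted over the 8 pairs. It exchanged labels over all 16 libraries without regard to batch, and the noncoding share entered none of the ratio tests. In the limma-voom fit with that share as a covariate, Eif4g3 was at -0.09 and Eif1 at 0.16, neither of them called. With labels exchanged only within batches (1296 permutations, a check added after seeing the data) the same 4 pairs passed, with adjusted p from 0.012 to 0.015 by that exact test. Eif4a1 over Eif4a2 had a mean of 4.86 ± 0.86 on day 1 and 3.43 ± 0.72 in ATV:DNP02 (SD), a difference of 1.43 (exact permutation, adjusted p = 0.0071). Day 1 was above the control mean in 8 of 8 libraries. Eif4g1 over Eif4g3 rose by 1.40 on this scale (8 of 8 libraries, exact permutation, adjusted p = 0.0071). Its mean was 0.38 ± 0.75 on day 1 and -1.02 ± 0.70 in ATV:DNP02.

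Eif1 over Eif1b rose by 0.76 and Eif4e over Eif4e2 by 0.65, each above the control mean in 8 of 8 libraries (exact permutation, adjusted p = 0.0071 for both). The other 4 pairs did not pass. Eif1a over Eif1ax had a difference of -0.61 (exact permutation, adjusted p = 0.084) and was below the control mean in 8 of 8 libraries. Eif5a over Eif5a2 had a difference of 1.07 (exact permutation, adjusted p = 0.11), which rests on the low counts of Eif5a2. Eif4g1 over Eif4g2 (0.37) and Eif3j1 over Eif3j2 (0.25) had adjusted p of 0.19 and 0.22 by the same exact permutation test. Against Vehicle the 4 called pairs passed as well, with differences from 0.83 to 1.90. Eif4g1 over Eif4g2 (0.62) and Eif5a over Eif5a2 (2.90) also passed there (exact permutation, adjusted p = 0.018 and 0.0069). Eif1a over Eif1ax (-0.05) and Eif3j1 over Eif3j2 (0.35) did not pass against Vehicle (exact permutation, adjusted p = 0.88 and 0.30).

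**Figure D3:**
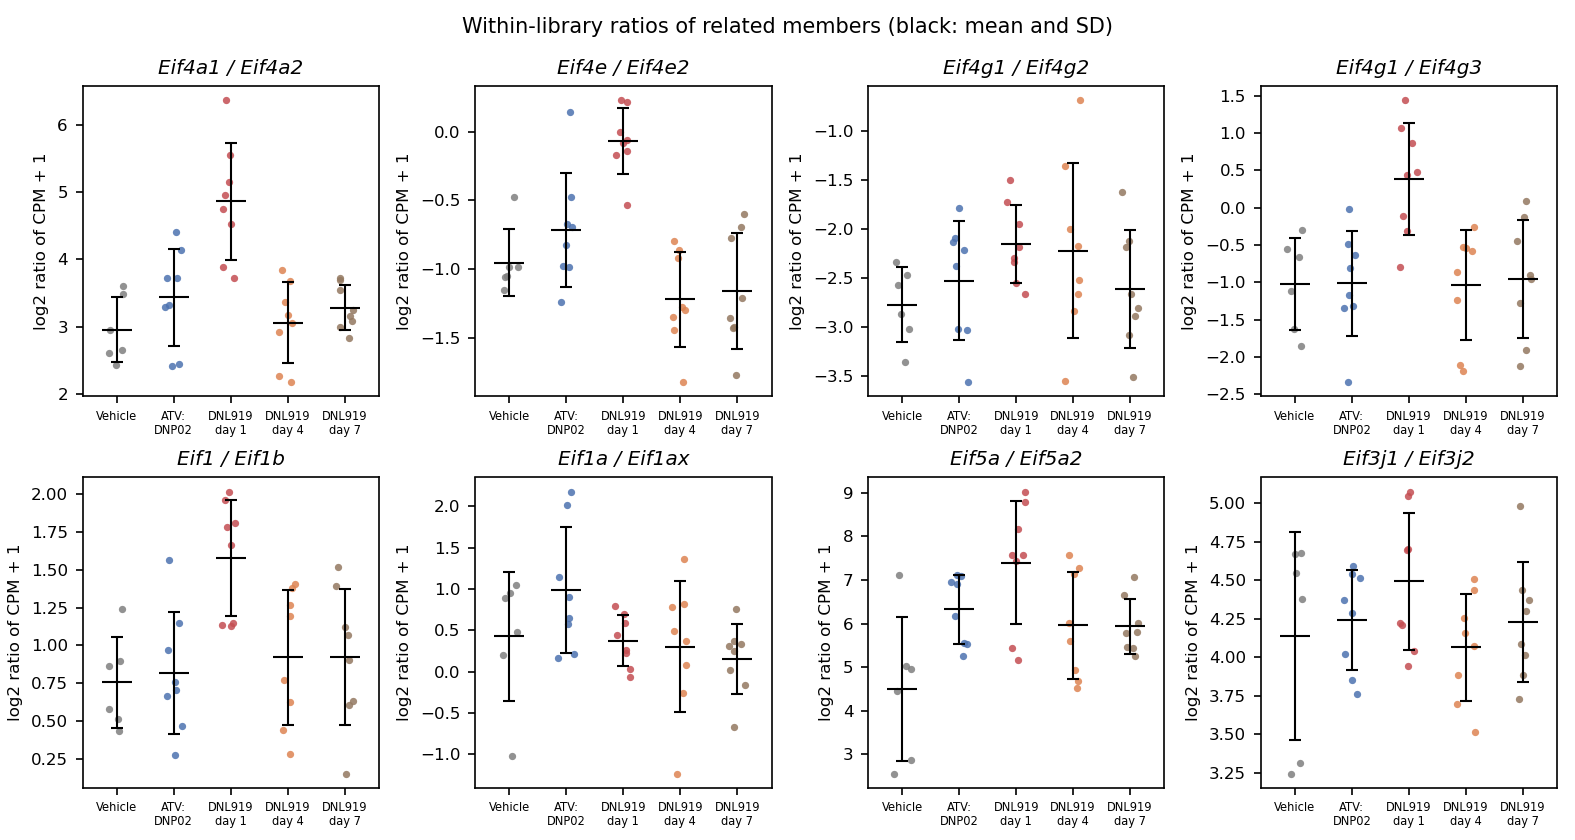
Log2 ratio of CPM + 1 between the genes of 8 related pairs in each library, by group, with the mean and SD in black. The ratios of Eif4a1 to Eif4a2, Eif4e to Eif4e2, Eif4g1 to Eif4g3 and Eif1 to Eif1b are higher on DNL919 day 1 than in ATV:DNP02 (differences of 1.43, 0.65, 1.40 and 0.76).

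Against Vehicle, 28 of 47 members were higher on DNL919 day 1 and 0 were lower, where 33.4% of all genes tested were called, 19% higher and 14.4% lower. This comparison shares its day 1 libraries with the one above, so the values are given side by side and not as a second finding. The members' median log2 fold change was 0.73, against 0.03 over all genes. In 12 members every day 1 library lay above every Vehicle library, which 6.69% of all genes did. The members with the largest values were Eif5a (2.45, SE 0.22, adjusted p = 2.7e-11), Eif2s1 (2.10, SE 0.21, adjusted p = 3.3e-10), Eif1ad (1.97, SE 0.25, adjusted p = 3.5e-08), Eif3b (1.68, SE 0.29, adjusted p = 1.2e-05) and Eif6 (1.65, SE 0.26, adjusted p = 2.3e-06). Their Vehicle libraries measured 33.6, 56.0 and 90.0 CPM for Eif2s1, 14.5, 24.3 and 33.6 CPM for Eif1ad, 14.3, 17.3 and 57.2 CPM for Eif3b and 17.5, 40.3 and 90.4 CPM for Eif6. All 5 subunits of eIF2B passed here, from 0.69 for Eif2b4 to 1.06 for Eif2b2, as did Eif4g1 (0.80, adjusted p = 0.039). Eif4g3 (-0.69, SE 0.29, adjusted p = 0.057) and Eif4e3 (-0.26, SE 0.34, adjusted p = 0.59), both called lower against ATV:DNP02, did not pass. With the noncoding covariate 14 members were called, where 18.6% of all genes were, and Eif3b (0.45) and Eif6 (0.50) were not called.

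Between the controls no member was called (limma-voom, ATV:DNP02 against Vehicle, 0% of all genes called). At an unadjusted p under 0.05 there were 3 members, Eif2b2, Eif2b3 and Eif5a2, and 498 genes in all. edgeR and DESeq2 also called 0 members.

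On day 4 and day 7 nearly all members were not called. Against ATV:DNP02 of day 1 a single member was called, Eif3f, where 1.81% of all genes were called, 1.58% higher and 0.223% lower. On day 7 Eif3f was again the single call, where 1.51% of all genes were called, 1.3% higher and 0.206% lower. Those 2 comparisons and that of day 1 share their control libraries. The members' median log2 fold change was 0.14 on day 4 and 0.05 on day 7, against 0.03 and 0.04 over all genes. The members' summed level ranged from 3392 to 4374 CPM on day 4 and from 3029 to 4356 CPM on day 7, overlapping the range in ATV:DNP02.

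Eif3f (ENSMUSG00000031029, chr7:108934417-108942951, plus strand), a subunit of eIF3, was not among the members called on day 1. It measured 63.4, 87.3 and 132 CPM on day 4 and 52.5, 87.9 and 160 CPM on day 7, against 35.5, 52.8 and 63.9 CPM in ATV:DNP02 and 31.5, 59.9 and 84.9 CPM in Vehicle. All 8 libraries of each day were above the ATV:DNP02 mean, though the ranges overlapped. The log2 fold change was 0.84 on day 4 (SE 0.19, adjusted p = 0.0099) and 0.79 on day 7 (SE 0.19, adjusted p = 0.024). On day 4 the call was lost without ATV:DNP02 replicate 1 (0.71, adjusted p = 0.074) or DNL919 day 4 replicate 1 (0.73, adjusted p = 0.058). On day 7 it was lost when any of 7 of the 16 libraries was left out, DNL919 day 7 replicates 3, 6 and 8 and ATV:DNP02 replicates 1, 2, 5 and 7, with a log2 fold change from 0.67 to 0.86 over the 16 fits. Among 32 alternatives, single libraries included, the call was lost in 5 on day 4 and in 12 on day 7. Those that left out no single library were, on day 4, the fits without batch 1 (0.68, adjusted p = 0.39), batch 3 (0.79, adjusted p = 0.051) or batch 4 (0.80, adjusted p = 0.078). On day 7 they were the fits with no batch term (0.77, adjusted p = 0.090), with only the groups compared (0.75, adjusted p = 0.060) and without batch 1, 2 or 4 (0.62 to 0.84, adjusted p from 0.11 to 0.29). Without the libraries with high neutrophil markers it was 0.83 on day 4 (adjusted p = 0.0096) and 0.77 on day 7 (adjusted p = 0.046).

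The members with the largest rises on day 1 were not called on the later days. Eif5a measured 63.6, 143 and 200 CPM on day 4 and 54.9, 166 and 194 CPM on day 7. Its fold against ATV:DNP02 was 1.12 on day 4 and 1.16 on day 7, and it was not called (adjusted p = 0.84 and 0.77). Eif2s1 measured 55.5, 84.6 and 114 CPM on day 4 and 24.0, 75.1 and 93.0 CPM on day 7, at folds of 1.198 and 1.016. Eif4a1 measured 77.3, 139 and 167 CPM on day 4 and 86.8, 147 and 188 CPM on day 7, at folds of 0.92 and 1.01. Eif4e was at folds of 0.94 and 1.01, and Eif6 at folds of 1.33 and 1.40, none of them called.

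**Figure D4:**
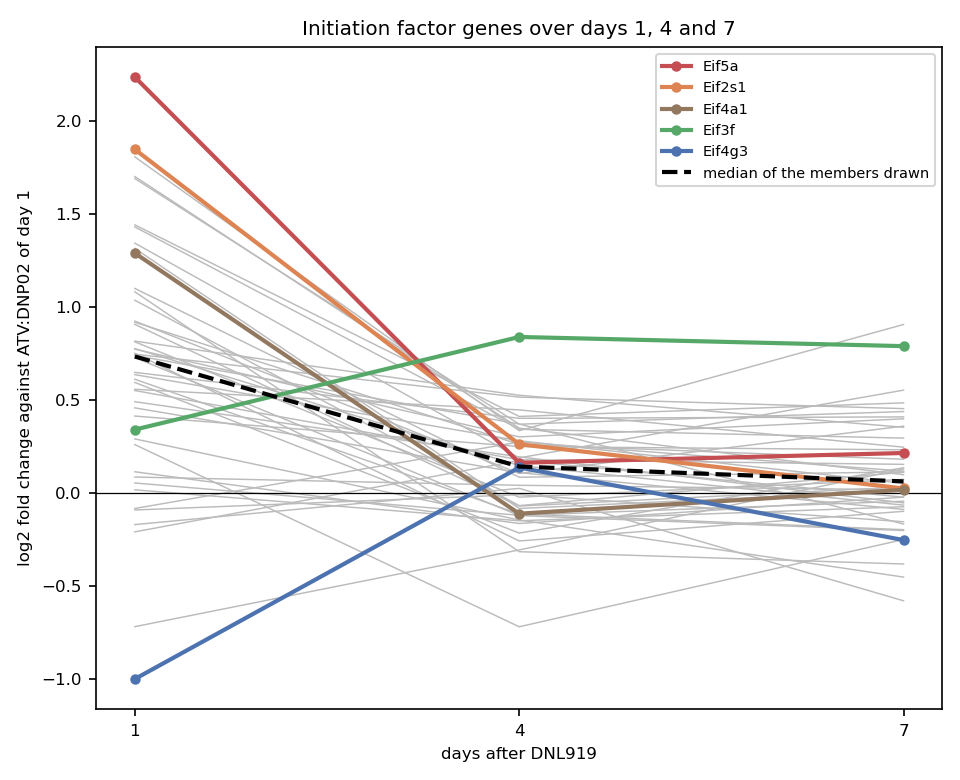
Log2 fold change of 46 members (Eif2s3y left out) on DNL919 days 1, 4 and 7, each against ATV:DNP02 of day 1, as 1 line per gene, with 5 named members in colour and the median of the 46 lines dashed. Eif5a falls from 2.24 to near 0, Eif4g3 is at -1.0025 on day 1, and Eif3f is higher on days 4 and 7 (0.84 and 0.79) than on day 1 (0.34).

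Day 4 was also set against day 1 directly. Of the 47 members 22 fell and 2 rose, where 31.9% of all genes were called, 18.1% lower and 13.8% higher, and the members' median was -0.47 against 0.00 over all genes. In 9 members every day 4 library lay below every day 1 library, which 3.22% of all genes did. The largest falls were in Eif5a (-2.08, SE 0.19, adjusted p = 2.6e-11), Eif2s1 (-1.59, SE 0.18, adjusted p = 3.5e-09), Eif4a1 (-1.40, SE 0.15, adjusted p = 1.1e-09), Eif4e (-1.40, SE 0.19, adjusted p = 1.0e-07) and Eif1a (-1.40, SE 0.22, adjusted p = 2.2e-06). Eif1a measured 24.5, 53.9 and 98.3 CPM on day 4, all below its day 1 libraries. The 2 that rose were Eif4g3 (1.14, SE 0.25, adjusted p = 4.6e-04), with 35.1, 55.1 and 118 CPM on day 4, and Eif3f (0.50, SE 0.18, adjusted p = 0.030). Between day 4 and day 7 no member was called (limma-voom, 0% of all genes called, 0 members at an unadjusted p under 0.05, and 0 members with edgeR and DESeq2).

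The levels were also summed by role. The 14 eIF3 genes summed to 1311, 1886 and 2057 CPM on day 1, 903, 1059 and 1216 CPM in ATV:DNP02, 1014, 1272 and 1497 CPM on day 4 and 978, 1246 and 1342 CPM on day 7. Day 1 did not overlap ATV:DNP02, and the medians of days 4 and 7 lay above the highest ATV:DNP02 library. Eif3f was among the genes summed, as was Eif3k, with means of 167 and 160 CPM on days 4 and 7 and 115 CPM in ATV:DNP02. Of the 14 genes, 12 had a log2 fold change above 0 on day 4 and 11 on day 7. Their medians were small, 0.18 and 0.13, against 0.03 and 0.04 over all genes. On each day 3 of the 14 had an unadjusted p under 0.05 (limma-voom) and only Eif3f was called. The share of all genes above 0 is not given here. The 11 cap complex genes summed to 770, 1099 and 1236 CPM on day 1 and 642, 687 and 803 CPM in ATV:DNP02, where the lowest day 1 library lay within the control range. The 5 eIF2B genes summed to 178, 259 and 308 CPM on day 1 and 126, 165 and 238 CPM in ATV:DNP02, also overlapping.

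**Figure D5:**
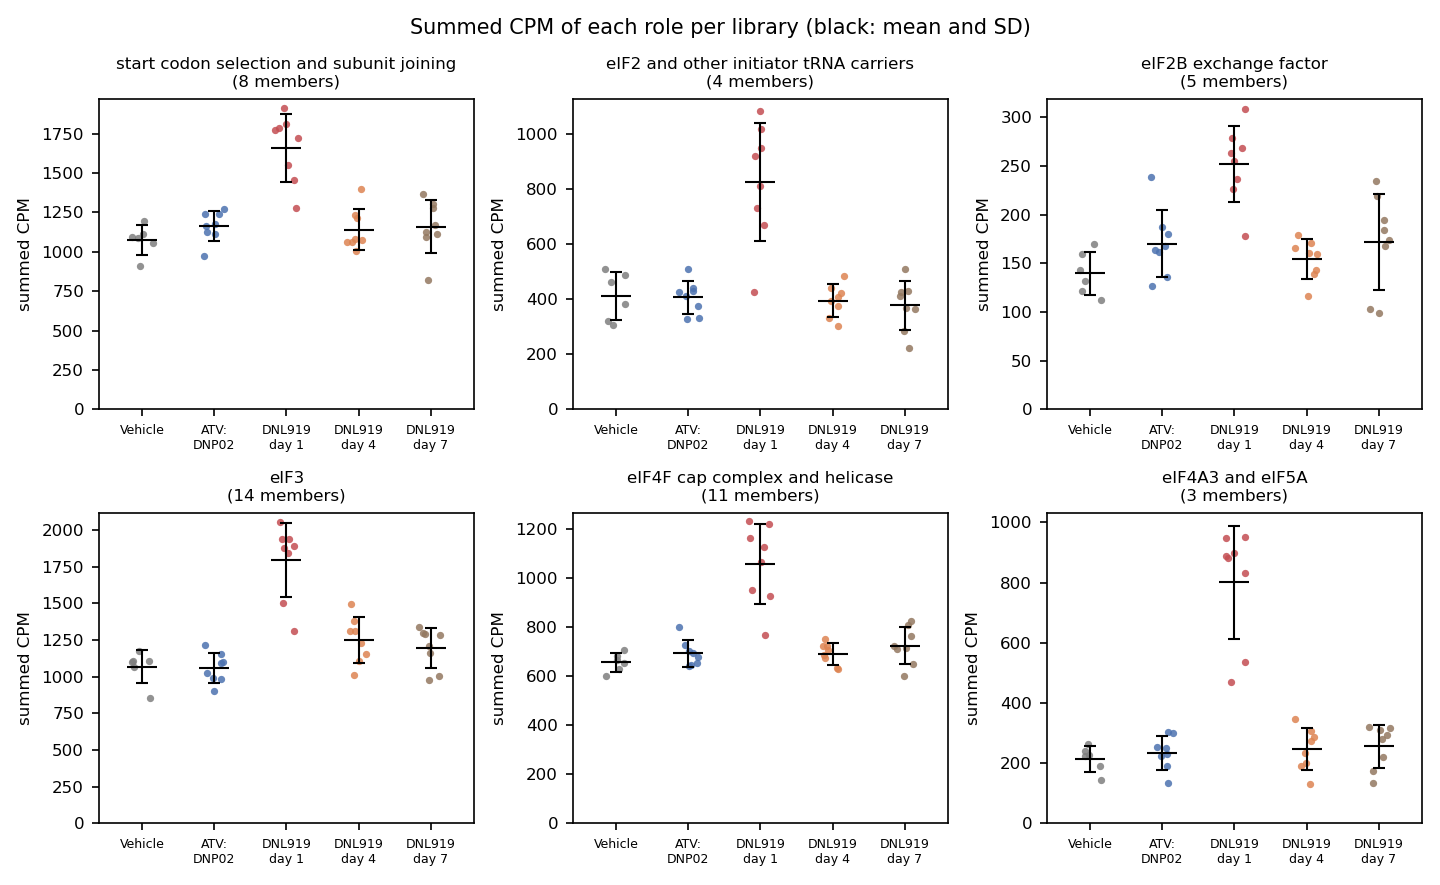
Summed CPM of the members of each role in every library, by group, with the mean and SD in black, leaving out Eif2s3x and Eif2s3y. The day 1 median is the highest in all 6 roles (for eIF3, a median of 1886 CPM against 1059 CPM in ATV:DNP02), and days 4 and 7 overlap ATV:DNP02.

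The day 1 effect was also compared between males and females. No member was called (limma-voom, 0% of all genes called). At an unadjusted p under 0.05 there were 5 members, with Eif4a1, Eif4e and Eif4e2 smaller in males and Eif2b5 and Eif5a2 larger, beside 609 genes in all. The intervals were wide, and for Eif4e the effect in males was 0.56 times that in females in fold terms, with a log2 interval from -1.54 to -0.15.

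Other genes of the translation pathway were read from lists, beside 20.8% of all genes tested higher and 15% lower on day 1. On day 1 against ATV:DNP02, of 14 tested regulators of the cap complex 1 rose (7.14%) and 4 fell (28.6%), with a median of -0.31. The riser was Eif4ebp1 (0.89, adjusted p = 0.0013), which encodes a repressor of eIF4E. The largest falls were in Pdcd4 (-2.10, adjusted p = 2.8e-08), which encodes an inhibitor of eIF4A, Pabpc4 (-1.16, adjusted p = 0.0043), a poly(A)-binding protein gene, and Paip2 (-0.57, adjusted p = 0.0019), which encodes an inhibitor of poly(A)-binding protein. Of 9 genes for eIF2 kinases, phosphatase subunits and targets 1 rose, Eif2ak2 (1.62, adjusted p = 0.0028), the kinase PKR that is induced by interferon, and 1 fell, Ddit3 (-0.51, adjusted p = 0.0075), a target of the stress pathway. Each makes 11.1% of that list, below the share of all genes in its direction.

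Of 11 other initiation cofactors 4 rose (36.4%) and 1 fell (9.09%), with a median of 0.58, beside the same shares of all genes. Denr (1.08, adjusted p = 1.8e-05) and Mcts1 (0.79, adjusted p = 0.0012), whose proteins form a heterodimer for reinitiation, both rose, as did Dohh (0.98, adjusted p = 0.023), which encodes an enzyme of the hypusine modification of eIF5A. A list of elongation and termination factors also holds the mitochondrial initiation factors Mtif2 and Mtif3. Of its 15 genes tested 10 were higher (66.7%) and 2 lower (13.3%), with a median of 1.23. They included Eef1g (2.09, adjusted p = 2.4e-10), a subunit of the eEF1 complex, and on the lower side Eef2k (-1.95, adjusted p = 0.0010), the kinase that inhibits eEF2. The other gene that fell was Mtif3 (-0.97, adjusted p = 0.0044). On day 4 and day 7 none of the 49 genes tested on these 4 lists was called, where 1.81% and 1.51% of all genes were.

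For 24 members the file's annotation places another gene over the same span, and for 11 of them a gene of the opposite strand with counts of its own. Among the members called on day 1 these are Eif2b4, Eif3m, Eif4g3 and Eif6. The 7 other rows whose symbols start with Eif and a digit but are not protein coding held 51 counts in all, against 495609 in the members. Counts were compared between groups for each gene only, since 3′ libraries give no level per length.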

How the data were processed

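Viable CD11b+ cells from 38 mice were profiled with a 3′ end RNA kit (SMART-Seq v4 3′ DE, Nextera XT). Per the submitters' processing notes, the authors aligned reads with STAR to GRCm38.p6 and made counts per gene with featureCounts of Subread 1.6.2. The annotation release, strand setting and handling of reads with several matches are not given in the sources used here. The deposited counts are rounded to 2 significant digits from 100 upward, and such values hold 91.3% of all counts. The deposited normalized signal (counts scaled to library size, made with edgeR) and the scaling factors, a ratio the authors list beside another column of library sizes, entered alternatives only.

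Of 53801 genes, 11189 passed the edgeR 4.0.16 filter on low counts (minimum count 10, total 15, proportion 0.7). Counts were scaled by the trimmed mean of M values and tested with limma 3.58.1 (voom, R 4.3.3) over all 38 libraries with group and takedown batch as terms, two-sided, with Benjamini-Hochberg adjustment over all genes tested and a threshold of 0.05. Intervals are 1.96 SE to either side. CPM are counts per M counts on scaled sizes of the genes that passed. DESeq2 1.42.0 and other settings were alternatives, and the fits were tested on simulated data. Nothing in the labels says whether libraries of a group share a handling step other than batch, so p-values measure the spread between these samples. Replicate numbers follow the order of deposit and only name a library.

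The members, gene lists and tests were chosen with earlier results of these data known. Values are printed for the 12 called members with the largest day 1 change, every member called lower, related pairs, the 5 with the largest called change in each other comparison and the X and Y linked pair. Values of other members, such as Eif2s2, Eif2b1, Eif2b4, Eif4h, Eif4a3 and the remaining eIF3 subunits, are given to account for each complex and were chosen after they were seen. For lists of other genes, at most the 4 called genes with the largest change are named, with Mtif3 and the microglial markers added after their values were seen. RefSeq promoter windows were searched for motifs, and GENCODE vM21 gave exons. Protein sequences were not used here.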

Additional observations from a re-analysis of the deposited data

Results flagged for a closer look

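In 16 of 230 combinations of member and group, 1 library stood apart from the rest of its group by Dixon's criterion at 95%, which chance gives in about 1 in 20. The 16 lie in 14 libraries, with 2 each in DNL919 day 4 replicate 6 and Vehicle replicate 6. Values are CPM, with the nearest other library of the group after them.

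Among the members called on day 1, Eif4g3 was at 58.0 in DNL919 day 1 replicate 8 (nearest 33.8), Eif4e3 at 59.8 in ATV:DNP02 replicate 5 (29.4) and Eif3i at 88.3 in ATV:DNP02 replicate 7 (53.5). Eif3c was at 239 in DNL919 day 1 replicate 1 (186). These 4 sit in the libraries of the main comparison, and the calls of Eif4g3, Eif3i and Eif3c held without them, while that of Eif4e3 did not.

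In Vehicle, Eif1b was low at 82.8 in replicate 5 (nearest 119) and Eif4a3 at 59.6 in replicate 6 (103). Eif2b4 was high at 63.0 in Vehicle replicate 3 (45.2), Eif3b at 57.2 in replicate 4 (28.4) and Eif4enif1 at 24.7 in replicate 6 (8.92).

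On day 4, Eif3e was high at 157 in replicate 4 (nearest 111) and Eif4g2 at 182 in replicate 3 (141). Eif4g1 at 81.8 (40.9) and Eif2s3x at 6.36 (3.88) were both high in replicate 6, the library with 5921 CPM of neutrophil markers, whose part in these values was not tested. On day 7, Eif2s1 was low at 24.0 in replicate 8 (nearest 62.0). Eif3b was high at 95.9 in DNL919 day 7 replicate 5 (52.2) and Eif3j2 at 4.59 in replicate 2 (2.56).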

How the results depend on the processing

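A tally of alternatives covers 37 results of single members, many picked for a large change, and counts those called in neither fit as kept. Of their 1213 values under alternatives, fits without 1 library included, 1161 kept their status, 44 lost a call, 8 gained one and 0 reversed. The 27 sign changes among members called in neither fit are not counted as reversed. The kept share therefore does not describe the 27 day 1 calls against ATV:DNP02. Of these, 11 were lost once noncoding share entered the fit, and 19 in males alone. Eif5a, Eif2s1, Eif1ad, Eif1ax, Eif4a1, Eif6 and Eif3g stayed called on day 1 against ATV:DNP02 in all 18 other settings and in 16 fits that each left out 1 library, a check chosen after seeing the data. The size of their changes still moved between settings. With the noncoding covariate Eif6 went from 1.44 to 0.55, near the threshold (limma-voom, adjusted p = 0.045), and Eif5a from 2.24 to 1.61.

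On day 1 against ATV:DNP02, 27 members were called, 17 with the noncoding share as a covariate (16 of them among the 27), 9 with males only and 25 to 28 without each library in turn. Of all genes 35.8% were called in the main fit, 23.7% with that covariate and 8.44% with males only. Against Vehicle, 28 members were called (33.4% of all genes), 14 with the noncoding covariate (18.6% of all genes) and 25 to 29 without each library. On day 4 against ATV:DNP02, 1 member was called, 2 with only the groups compared or with sample quality weights, 0 without batch 1 or batch 4 and 0 to 1 without each library. On day 7, 1 member was called, 2 with sample quality weights, 0 with no batch term, with only the groups compared or without batch 1, 2 or 4, and 0 to 1 without each library. In the main fits of these days 1 member is 2.13% of the 47 tested, beside 1.81% of all genes on day 4 and 1.51% on day 7. Day 4 against day 1 gave 22 to 27 members without each library, where the main fit called 31.9% of all genes, and the comparisons with 0 calls gave 0. Shares of all genes in the other fits are not given here. The causes were not tested. For the ratio of Eif4g1 to Eif4g2, Vehicle in place of ATV:DNP02 gave a difference of 0.62, past the threshold. The ratio of Eif5a to Eif5a2 passed with CPM + 5 (1.73) and against Vehicle (2.90).

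Scaling by library totals alone moved the day 1 median of all genes from 0.01 to -0.10 and that of the members to 0.60, with 24 members higher and 2 lower. The shares of all genes called higher and lower in that fit are not given here, so these counts stand without a background. Depth limits Eif2s3x, Eif3j2 and Eif5a2, with 351, 330 and 279 counts in all. No paired analysis was possible because the labels carry no replicate numbers, and takedown batch was a term of the fit.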
